A study of Homo sapiens with 6 samples.

Results

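The family of miR-148 and miR-152 consists of 3 hairpins, miR-148a, miR-148b and miR-152, which were chosen by name from the deposited miRNA values. All 6 of their mature products had a value, out of 449 miRNAs in the table. These are hsa-miR-148a-3p, hsa-miR-148b-3p and hsa-miR-152-3p, which share a seed, and the 5p arms hsa-miR-148a-5p, hsa-miR-148b-5p and hsa-miR-152-5p. The small RNA libraries came from BCSCs, stem-like cells grown as spheres from MDA-MB-231, a human triple-negative breast cancer line of WT genotype. The 3 RA libraries were from cells given 200 μg/mL rosmarinic acid, a plant phenolic acid extracted from S. glabra, for 48 h. The 3 control libraries were from cells held for 48 h at 0 μg/mL. The treatment notes mention 3 wells per group, but no source ties a library to a well, and the p-values thus cover only how far these libraries vary, which may be technical variation. The extraction notes of the labels describe brain tissue, whereas the study's methods describe cultured cells.

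A miRNA hairpin is cut into a short duplex, of which 1 strand, the guide, is kept in Argonaute while the other, the passenger, is mostly degraded. Bases 2 to 8 of the guide, the seed, set most of its targeting, so that miRNAs with the same seed act on overlapping mRNAs. In this family the guide is the 3p arm. miR-148a and miR-152 are known to target DNMT1, the maintenance DNA methyltransferase, and have been described as tumor suppressors in breast cancer, and miR-148a is among the most abundant miRNAs of liver.

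The sequences of the 3 guides show what they share and where they differ. They are given 5′ to 3′ from RefSeq (GRCh38.p14), with the seed in capitals.
miR-148a-3p: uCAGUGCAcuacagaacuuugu
miR-148b-3p: uCAGUGCAucacagaacuuugu
miR-152-3p: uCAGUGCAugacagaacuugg

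The first 8 bases were identical in the 3 guides. Counted from 1 at the 5′ end, with the first-named miRNA's base first, miR-148a-3p and miR-148b-3p differed at C9U and U10C and were identical at 20 of 22 positions. miR-148a-3p and miR-152-3p differed at C9U, U10G and U20G, with 18 of 21 identical, and miR-148b-3p and miR-152-3p at C10G and U20G, with 19 of 21 identical. With 2 or 3 base differences, a short or mismatched read could be given to the wrong member, and the rule by which the authors assigned such reads is not given in the sources used here. RefSeq held a mature sequence under the same name for 404 of the 449 miRNAs. Among these, the seed CAGUGCA occurred in these 3 alone.

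The hairpins are given with the mature arms that RefSeq names in capitals, since both arms were measured.
miR-148a: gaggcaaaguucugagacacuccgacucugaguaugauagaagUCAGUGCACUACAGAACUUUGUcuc
miR-148b: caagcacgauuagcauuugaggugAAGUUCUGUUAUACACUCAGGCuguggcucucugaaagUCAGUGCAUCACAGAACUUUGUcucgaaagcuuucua
miR-152: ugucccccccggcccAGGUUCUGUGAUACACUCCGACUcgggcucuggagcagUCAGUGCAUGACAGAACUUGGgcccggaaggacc

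The miR-148a hairpin lies on chromosome 7 from 25949919 to 25949986 of GRCh38, minus strand, and overlaps no other gene of GENCODE. The miR-148b hairpin lies on chromosome 12 from 54337216 to 54337314, plus strand, within COPZ1 and the sense-overlapping gene AC078778.2 and outside the exons of both. The miR-152 hairpin lies on chromosome 17 from 48037161 to 48037247, minus strand, within COPZ2 and outside its exons. COPZ1 and COPZ2 are paralogs that encode zeta subunits of the coatomer, a vesicle coat complex. These positions come from the reference annotation alone. The deposited table lists no positions, and its build is hg19 by the submitters' notes. No RefSeq mature sequence was found under the name miR-148a-5p, so that arm is not in capitals above and its sequence is not given. The 5p arms of miR-148b and miR-152 are given next, because they carry different seeds.
miR-148b-5p: aAGUUCUGuuauacacucaggc
miR-152-5p: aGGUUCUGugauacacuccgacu

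These differed at A2G, inside the seed, and at U10G, A19C and G21A, with 18 of 22 positions identical.

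All values are normalized read counts (CPM) as deposited, and the steps between them gave back the whole number of reads behind each. The RA libraries held 176590 to 1158116 miRNA reads, against 2190324 to 4111404 in the control libraries, and depth therefore cannot be told apart from the comparison. Markers of basal-like breast cancer cells (miR-221-3p, miR-222-3p, miR-100-5p, miR-10b-5p) summed to 46377 to 71207 CPM in RA libraries and 55827 to 64301 CPM in control libraries. The 4 luminal markers with a value, out of 6 listed, summed to 183 to 218 CPM in RA libraries and 195 to 277 CPM in control libraries. The groups were compared with limma on log2(CPM + 1) over all 449 miRNAs, with p-values adjusted over all of them by the Benjamini-Hochberg method and called at 0.05.

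After RA, miR-152-3p was the family's lower guide, with an RA mean of 0.561 times its control mean, while miR-148a-3p and miR-148b-3p stood at 0.916 and 0.927 of theirs and did not pass the test. Of the 6 products, 1 was called and it was lower. Among all miRNAs 7.57% were called in either direction and 4.68% were called lower. In bulk libraries a lower level per cell and fewer cells that carry the miRNA cannot be told apart.

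miR-152-3p stood at 3573, 4881 and 3763 CPM in the RA libraries, from 3619, 937 and 1294 reads, against 7660, 6702 and 7423 CPM in the control libraries. The highest RA library lay below the lowest control library, so the groups did not overlap. The means were 4072 ± 707 CPM after RA and 7262 ± 499 CPM in controls (SD, n = 3 each). The log2 fold change was -0.85 (standard error 0.19, 95% interval -1.26 to -0.43, adjusted p = 0.017 from limma). On recovered reads, the quasi-likelihood test of edgeR gave -0.81 with an adjusted p of 0.021, in a fit that called 6.24% of all miRNAs lower. Groups that did not overlap and were lower after RA were found for 17.1% of all miRNAs. The sign was the same in all 17 alternatives, from -0.98 to -0.65, although the filters and the replicate block among them cannot change the estimate. The call ended without control replicate 1, 2 or 3 (adjusted p = 0.12, 0.052 and 0.095 from limma), without RA replicate 3 (adjusted p = 0.12 from limma), and under 3 other scalings (adjusted p of 0.062 to 0.093 from limma). Those scalings, to the library total, upper quartile or DESeq2 size factors, put the all-miRNA median at 0.13, 0.12 and 0.17 on the log2 scale, against 0.00 as deposited. Relative to that median miR-152-3p was at -0.84 under each of them and at -0.85 as deposited. Scaling moves all miRNAs of a library together, so this likeness follows from the method and is no further support. The 0.00 as deposited holds over all 449 miRNAs. Over the 260 with a mean of at least 10 CPM, miR-152-3p among them, the deposited median was -0.17, with 162 below 0.

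miR-148a-3p, by far the most abundant member, stood at 172462, 148055 and 99504 CPM in the RA libraries and 186606, 126475 and 145393 CPM in the control libraries. The groups overlapped widely, with RA replicate 3 below every other library. It ranked second of the 449 miRNAs in every library, and its reads made up 11.5% to 16.1% of RA libraries and 13.2% to 16.2% of control libraries. The means were 140007 ± 37139 CPM after RA and 152825 ± 30747 CPM in controls (SD, n = 3 each). The log2 fold change was -0.14 (standard error 0.28, 95% interval -0.75 to 0.46, adjusted p = 0.77 from limma). Its sign was not settled, since 4 of the 17 alternatives gave a value above 0.

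miR-148b-3p stood at 3359, 2735 and 2527 CPM in the RA libraries and 3258, 2627 and 3411 CPM in the control libraries. RA replicate 1 lay within the range of the controls and above that of the other RA libraries. The means were 2874 ± 433 CPM after RA and 3099 ± 415 CPM in controls (SD, n = 3 each). The log2 fold change was -0.11 (standard error 0.19, 95% interval -0.53 to 0.31, adjusted p = 0.76 from limma).

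**Figure D1:**
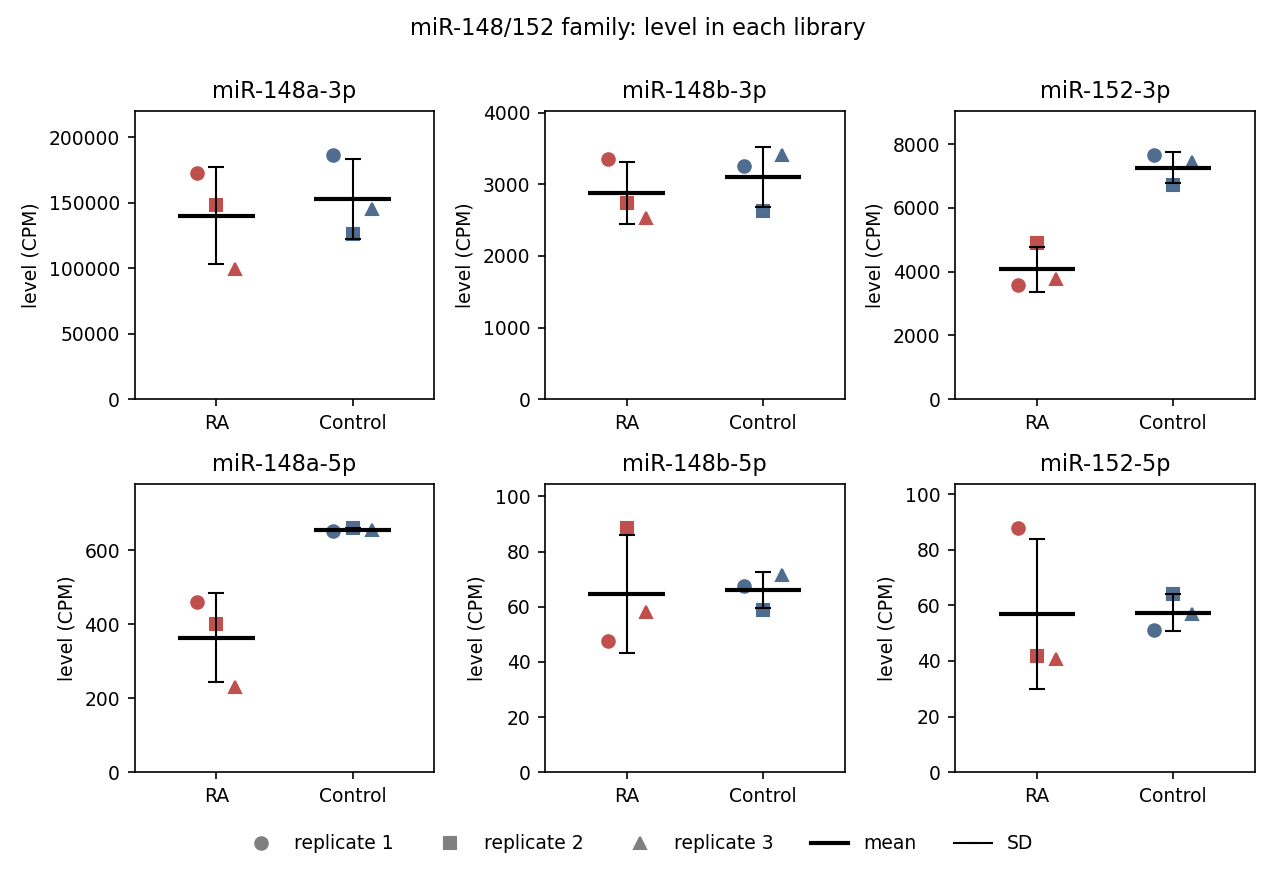
Level of each mature product in CPM (y axis, from 0, a different scale in each panel) in the 3 RA and the 3 control libraries, with the mean and SD. The RA libraries of miR-152-3p (3573 to 4881 CPM) lie below all control libraries (6702 to 7660 CPM), as do those of miR-148a-5p (230 to 460 CPM against 652 to 660 CPM), while the groups overlap for the other 4 products.

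The order of the guides was the same in all 6 libraries, with miR-148a-3p above miR-152-3p and miR-152-3p above miR-148b-3p. miR-148a-3p exceeded miR-152-3p by 26.4-fold to 48.3-fold in RA libraries and by 18.9-fold to 24.4-fold in control libraries. The distance between miR-152-3p and miR-148b-3p was smaller. It was 1.06-fold, 1.78-fold and 1.49-fold in the RA libraries, against 2.35-fold, 2.55-fold and 2.18-fold in the control libraries. In RA replicate 1 they were therefore nearly level, at 3573 and 3359 CPM.

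Whether the members differed in their response was tested on their ratio within each library, which does not depend on scaling. The log2 ratio of miR-152-3p over miR-148a-3p averaged -5.08 ± 0.45 after RA and -4.38 ± 0.20 in controls (SD, n = 3 each), a difference of -0.70. That of miR-152-3p over miR-148b-3p averaged 0.50 ± 0.38 after RA and 1.24 ± 0.11 in controls, a difference of -0.74. In both cases the RA libraries all lay below the control libraries. Without RA replicate 1 the first difference was -0.44. The exact two-sided permutation p was 0.10 for each, the smallest that 3 against 3 libraries can give, and 0.15 after adjustment over the 3 pairs, so neither passed. The ratio of miR-148b-3p over miR-148a-3p averaged -5.58 ± 0.25 after RA and -5.61 ± 0.21 in controls, a difference of 0.03 (exact permutation p = 0.90), which is within the spread between libraries.

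**Figure D2:**
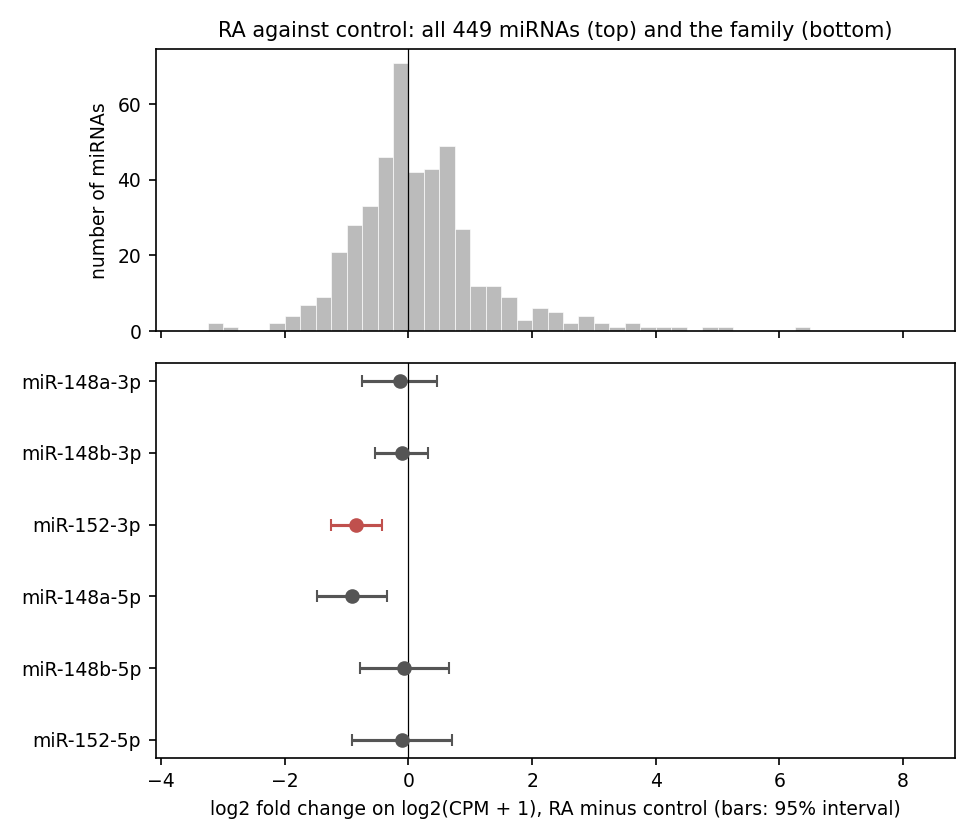
Log2 fold change of RA against control from limma (x axis, log2(CPM + 1) scale) for all 449 miRNAs as a histogram (number of miRNAs, top) and for the 6 family products as points with 95% intervals (bottom, red where the adjusted p was under 0.05). miR-152-3p at -0.85 and miR-148a-5p at -0.91 stand apart from the other 4 products, which lie between -0.14 and -0.07.

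The 3 guides were then added, since they share a seed. Their sum was 179395, 155671 and 105794 CPM in the RA libraries and 197525, 135804 and 156227 CPM in the control libraries. The groups overlapped, and the sum made up 12.2% to 16.9% of the reads of RA libraries and 14.2% to 17.1% of those of control libraries. The mean was 146953 ± 37567 CPM after RA and 163185 ± 31443 CPM in controls (SD, n = 3 each), a difference in mean log2 of -0.17 (exact two-sided permutation p = 0.60). Without RA replicate 3 that difference was 0.05 (exact permutation p = 0.90). The mean of miR-152-3p fell by 3189 CPM, whereas the SD of the family sum alone was 31443 CPM among controls, so the change of miR-152-3p was small beside the spread of the sum.

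As shares of the family sum, miR-148a-3p made up 96.1%, 95.1% and 94.1% in the RA libraries and 94.5%, 93.1% and 93.1% in the control libraries. RA replicate 3 lay below control replicate 1, so that the groups overlapped (exact permutation p = 0.20, adjusted over the 3 shares 0.30). miR-152-3p made up 1.99%, 3.14% and 3.56% in the RA libraries and 3.88%, 4.93% and 4.75% in the control libraries. Here the groups did not overlap, with means of 2.89% ± 0.81 after RA and 4.52% ± 0.565 in controls (SD, n = 3 each), a difference of -1.63 percentage points. The exact two-sided permutation p was 0.10, the smallest possible, and 0.30 after adjustment over the 3 shares. miR-148b-3p made up 1.76% to 2.39% in the RA libraries and 1.65% to 2.18% in the control libraries (exact permutation p = 0.70).

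**Figure D3:**
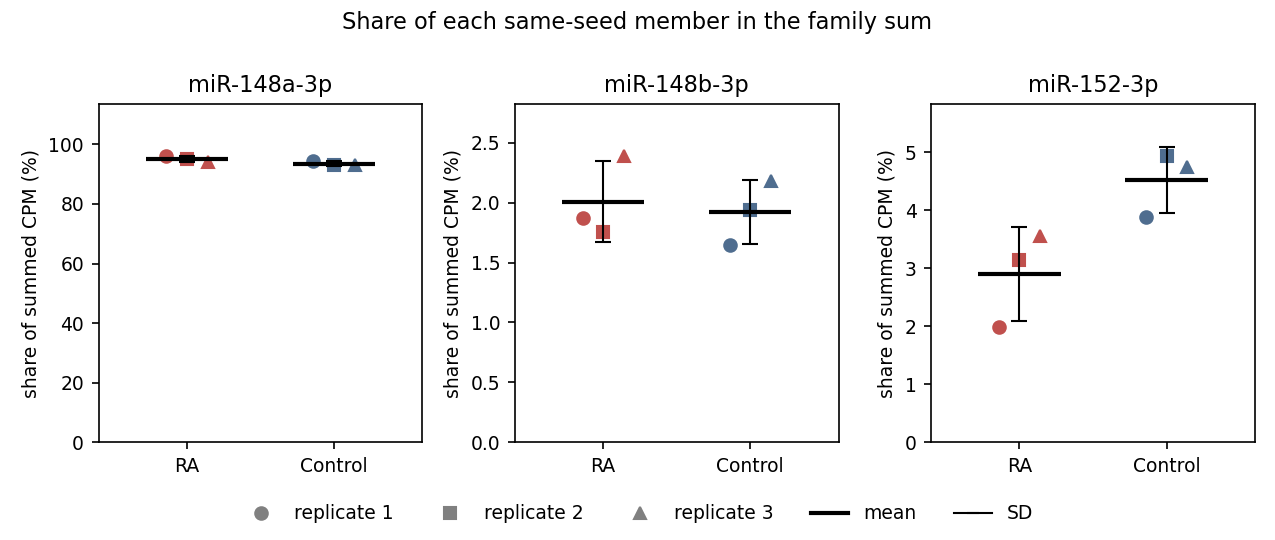
Share of each guide in the summed CPM of miR-148a-3p, miR-148b-3p and miR-152-3p (y axis, percent, from 0, a different scale in each panel) in each RA and control library, with the mean and SD. The share of miR-152-3p is 1.99% to 3.56% in RA libraries and 3.88% to 4.93% in control libraries without overlap.

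The 5p arms, the passenger strands, were far less abundant than the guides, and none of them passed the test. miR-148a-5p stood at 460, 401 and 230 CPM in the RA libraries, from 466, 77 and 79 reads, against 652, 660 and 654 CPM in the control libraries. The groups did not overlap, and the controls were very close to each other. Means were 364 ± 120 CPM after RA and 655 ± 4.14 CPM in controls (SD, n = 3 each). The log2 fold change was -0.91 (standard error 0.26, 95% interval -1.48 to -0.34), and the adjusted p of 0.053 from limma missed the threshold, as did 0.062 from edgeR. Over the 17 alternatives it lay between -1.11 and -0.61, and 4 of them passed, among these the fits without RA replicate 1 (adjusted p = 0.021 from limma) and without RA replicate 3 (adjusted p = 0.049 from limma).

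miR-148b-5p stood at 47.4, 88.6 and 58.2 CPM in the RA libraries, from 48, 17 and 20 reads, and at 67.3, 58.9 and 71.6 CPM in the control libraries. The RA libraries spread on both sides of the controls (log2 fold change -0.07, 95% interval -0.79 to 0.65, adjusted p = 0.91 from limma). miR-152-5p stood at 87.9, 41.7 and 40.7 CPM in the RA libraries, from 89, 8 and 14 reads, and at 51.0, 64.3 and 56.8 CPM in the control libraries. RA replicate 1 was the highest and the other RA libraries the lowest of the 6 (log2 fold change -0.10, 95% interval -0.92 to 0.71, adjusted p = 0.88 from limma). The levels of miR-148b-5p and miR-152-5p overlapped in both groups, so that these neighbours in the order of levels did not differ beyond their spread. With 8 and 14 reads of miR-152-5p in RA replicates 2 and 3, a change of the size seen for miR-152-3p lay within its interval.

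The relation of the arms within a hairpin was given as the 5p share of the reads of both arms, with exact Clopper-Pearson 95% intervals that cover counting error only. For miR-148a this share was 0.266% (0.243 to 0.291), 0.270% (0.213 to 0.338) and 0.230% (0.182 to 0.287) in the RA libraries. It was 0.348% (0.329 to 0.368), 0.519% (0.50 to 0.539) and 0.448% (0.429 to 0.468) in the control libraries. The highest RA share was below the lowest control share (difference of means -0.18 percentage points, exact two-sided permutation p = 0.10, the smallest possible, adjusted over the 3 hairpins 0.30). Of the 61 hairpins with both arms at a mean of at least 10 CPM, 12, or 19.7%, had a lower 5p share after RA with no overlap, and 4 had a higher one.

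For miR-152 the 5p share was 2.40% (1.93 to 2.95), 0.847% (0.366 to 1.66) and 1.07% (0.586 to 1.79) in the RA libraries, against 0.662% (0.537 to 0.807), 0.95% (0.841 to 1.07) and 0.760% (0.652 to 0.880) in the control libraries. RA replicate 1 stood above all others, while RA replicate 2 lay within the controls (exact permutation p = 0.20, adjusted 0.30). RA replicate 3 also lay above every control share, although its interval reached below all of them. The difference of means was 0.65 percentage points, and 0.17 without RA replicate 1. For miR-148b it was 1.39% to 3.14% in RA libraries and 2.02% to 2.19% in control libraries (exact permutation p = 0.70). By point estimate alone, the passenger had the lower log2 fold change in the miR-148a hairpin (-0.91, against -0.14 for the guide). In the miR-152 hairpin it was the guide (-0.85, against -0.10 for the passenger). A different response of the arms was not established, since the 5p share passed for neither hairpin (exact permutation, adjusted p = 0.30 for each). miR-148a-5p was itself not called, and miR-152-5p rests on 8 and 14 reads in RA replicates 2 and 3. Without RA replicate 1, miR-152-5p was at -0.46 and miR-152-3p at -0.76.

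**Figure D4:**
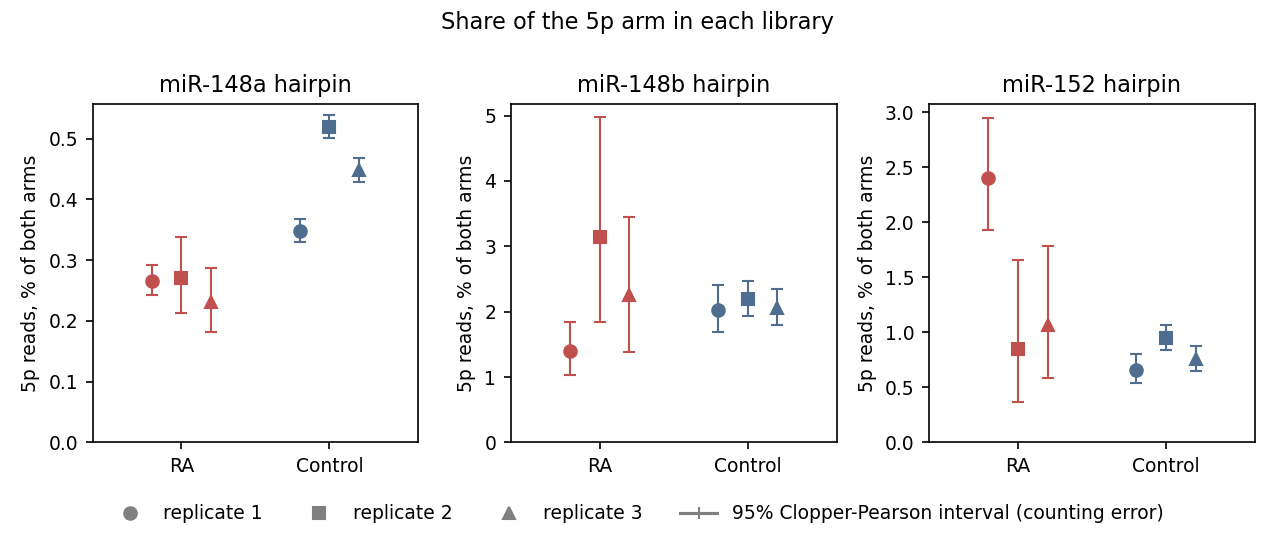
Reads of the 5p arm as a percent of the reads of both arms (y axis, from 0, a different scale in each panel) in each RA and control library, with exact Clopper-Pearson 95% intervals for counting error. For miR-148a the RA libraries (0.230% to 0.270%) lie below the control libraries (0.348% to 0.519%). For miR-152 RA replicate 1 is the highest at 2.40%, and RA replicate 3 at 1.07% is also above the highest control at 0.95%.

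Because miR-148a-3p is abundant in liver, the liver markers were read beside it. The 4 with a value, out of 5 listed, summed to 13187, 495 and 634 CPM in the RA libraries and 1146, 819 and 875 CPM in the control libraries. miR-122-5p, the defining liver miRNA, alone held 9493 CPM in RA replicate 1, against 5.21 and 0 CPM in RA replicates 2 and 3. Of the RA libraries, replicate 1 also had the highest miR-148a-3p, miR-148a-5p, miR-148b-3p and miR-152-5p and the lowest miR-148b-5p and miR-152-3p, and the part of the liver signal in these values was not tested. When RA replicate 1 was left out, miR-152-3p had a log2 fold change of -0.76 (adjusted p = 0.025 from limma) and miR-148a-3p of -0.31 (adjusted p = 0.43 from limma). Blood cell markers, 8 of 8 with a value, summed to 1683 to 2684 CPM in RA libraries and 1936 to 2104 CPM in control libraries. Of these, 1 was called higher in limma and 3 in edgeR, where 13 and 38 of all 449 miRNAs were called higher. The other direction was seen for 3 of the 8, with log2 fold changes of -0.26 for miR-486-5p, -0.49 for miR-142-3p and -0.11 for miR-142-5p. Among them miR-451a, an erythroid miRNA, was higher (824, 26.0 and 355 CPM in RA libraries, against 5.26, 33.8 and 6.10 CPM in control libraries, adjusted p = 0.031 from limma). miR-223-3p, a myeloid miRNA, stood at 3.95, 20.8 and 145 CPM in RA libraries and 0.526, 3.72 and 0.321 CPM in control libraries without overlap (adjusted p = 0.066 from limma, 0.0053 from edgeR). Both were named after their values were seen, and their part in the family's values was not tested. The endothelial pair, of which none passed in limma and 2 in edgeR (both higher, beside the 38 of 449), summed to 0 to 412 CPM in RA libraries and 3.16 to 8.99 CPM in control libraries.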

How the data were processed

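Small RNA was sequenced from 3 RA and 3 control libraries. The authors deposited, for each of 449 mature miRNAs, a normalized signal per library headed CPM, and 1 log2 value per group, pooled by the authors and not used here. The CPM columns had totals of 867794 to 1152344. Divided by the value of 1 read, 100% of the 2694 values came out whole, within 0.01 reads. The submitters' processing notes name hg19. How reads were aligned and counted is not given in the sources used here.

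The study's methods name Student's test in general and no tool for the sequencing values. They also set a threshold of fold change and p for calling a miRNA differential, which was not applied here. The groups were fitted on log2(CPM + 1) with limma 3.58.1 (R 4.3.3, prior variance trended on the mean), without a filter, a scale that understates the change of low miRNAs. edgeR 4.0.16 and DESeq2 1.42.0 were run on recovered reads as alternatives, beside other scalings, pseudocounts and filters, a replicate block and each library left out in turn. Single values were compared by exact permutation over the 6 libraries. 1 read stood for 0.987, 5.21 and 2.91 CPM in RA replicates 1 to 3, and for 0.233 to 0.526 CPM in controls.

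Named miRNAs were both arms of the family, the 3 miRNAs of at least 10 CPM closest in pattern to each guide, and from lists of DNA methyltransferase-targeting and offset-seed miRNAs those that passed and the 3 most abundant. The members and lists were chosen with earlier results of these data known.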

Additional observations from a re-analysis of the deposited data

How the results depend on the processing

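The number of called miRNAs, 34 with limma, was 66 with edgeR, 66 with DESeq2 and 77 with limma-voom on recovered reads, and 10 to 49 without 1 library (10, 19 and 16 without control replicate 1, 2 or 3 and 17 without RA replicate 3). Of the 34, 13 were higher and 21 lower, against 17 and 11 scaled to the library total, 17 and 12 with upper-quartile factors and 17 and 11 with DESeq2 size factors in limma. Replicate numbers were not taken to pair libraries, since deviations of same-numbered libraries correlated at 0.12, -0.19 and 0.13 over 260 miRNAs. A replicate block gave 55 calls. Under the block miR-148a-5p passed (adjusted p = 0.0038 from limma) and miR-152-3p kept its call (adjusted p = 0.0013 from limma), and no other family product passed.

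Near 0, signs changed with scaling, where the median of all miRNAs moved to 0.13, 0.12 and 0.17. Relative to that median no family product changed sign under the 3 scalings (miR-148b-3p from -0.11 to -0.10), which follows from a shift that all miRNAs share. The log2 fold change of miR-148a-5p was below 0 in all 17 alternatives. miR-148b-3p had log2 fold changes of 0.026, 0.021 and 0.069 with the library total, upper-quartile factors and DESeq2 size factors in limma, miR-148b-5p 0.064, 0.058 and 0.11, and miR-152-5p 0.029, 0.024 and 0.072. miR-148a-3p was at 0.035 and miR-143-3p at 0.057 with DESeq2 size factors, and miR-143-3p at 0.013 and 0.0078 with the other factors. DESeq2 on reads gave 0.045 for miR-148a-3p, 0.067 for miR-148b-3p, 0.080 for miR-148b-5p, 0.23 for miR-152-5p, 0.063 for miR-143-3p and 0.028 for miR-301a-3p. miR-152-5p was at 0.072 with edgeR and 0.10 with limma-voom. Without 1 library, miR-148a-3p lay between -0.31 and 0.083, miR-148b-5p between -0.32 and 0.13, miR-152-5p between -0.46 and 0.083, miR-143-3p between -0.29 and 0.0064 and miR-301a-3p between -1.21 and 0.20.

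The summed guides differed by 0.012 on the log2 scale with DESeq2 size factors and by -0.33 to 0.052 without 1 library. Pooled reads gave differences of -0.010 percentage points for the share of miR-148b-3p, -0.042 for its log2 ratio to miR-148a-3p and -0.36 points for the 5p share of miR-148b. Without 1 library these ranged from -0.11 to 0.21, from -0.11 to 0.13 and from -0.27 to 0.60. The share of miR-152-3p (-1.96 to -1.18 points without 1 library), its ratios and the 5p share of miR-148a kept their sign in all 8 alternatives each. Depth limits the 5p arms of miR-148b and miR-152, which rest on 8 to 20 reads in RA replicates 2 and 3.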

Other observations

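The miRNAs whose pattern over the 6 libraries was most like that of each guide were found by the root mean square distance of log2(CPM + 1), centred on its mean, among 259 other miRNAs of at least 10 CPM. For miR-152-3p they were miR-32-5p (distance 0.086), miR-140-3p (0.088) and miR-378g (0.13). miR-140-3p averaged 6463 CPM after RA and 12207 CPM in controls. For miR-148a-3p they were miR-125b-1-3p (0.17), miR-143-3p (0.17) and miR-532-5p (0.19), and for miR-148b-3p they were miR-143-3p (0.055), miR-142-5p (0.057) and miR-532-5p (0.081). Within the family, miR-148b-3p came at place 5 from miR-148a-3p (0.19), whereas miR-152-3p came at place 104 (0.45). Counted from miR-148b-3p, miR-148a-3p came at place 19 and miR-152-3p at place 137. The passenger of the miR-152 hairpin, miR-152-5p, came at place 162 from miR-152-3p (0.61), and rests on 8 and 14 reads in RA replicates 2 and 3. These distances are descriptions over the same 6 libraries.

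Of 8 miRNAs known to target DNA methyltransferases outside the family, 2 were lower and none higher in limma, where 4.68% of all miRNAs were lower. edgeR called 4 of them, where it called 66 of all 449 miRNAs in either direction. These were the same 2 lower and miR-342-3p and miR-126-3p higher (log2 fold changes of 3.99 and 5.11, adjusted p = 0.019 and 0.00044 from edgeR, both named after their values were seen). For both the groups overlapped, and neither passed in limma (adjusted p = 0.16 and 0.40 from limma). In RA libraries miR-342-3p stood at 0.987, 15.6 and 40.7 CPM, from 1 to 14 reads. There miR-126-3p, also in the endothelial pair, stood at 394, 0 and 233 CPM. The median log2 fold change of the 8 was -0.16, against -0.17 over the 260 miRNAs of at least 10 CPM and 0.00 over all. miR-101-3p, which targets DNMT3A, averaged 1411 ± 313 CPM after RA and 3128 ± 420 CPM in controls (SD, n = 3 each). On the log2 scale this came to -1.16 (adjusted p = 0.0070 from limma). Its call ended without control replicate 1 (adjusted p = 0.082) or RA replicate 3 (adjusted p = 0.12 from limma). miR-185-5p, which targets DNMT1, averaged 868 ± 69.7 CPM after RA and 1746 ± 369 CPM in controls (SD, n = 3 each). On the log2 scale this came to -0.99 (adjusted p = 0.011 from limma). That call ended when control replicate 1 or either of RA replicates 2 and 3 was left out (adjusted p = 0.097, 0.063 and 0.094 from limma). miR-143-3p, at -0.12, and miR-29a-3p, at -0.19, did not pass.

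The 6 bases AGUGCA, which are bases 3 to 8 of the 3 guides, also began at base 2 of miR-130b-3p, miR-301a-3p and miR-301b-3p. With the 3 guides, 6 of the 404 miRNAs searched held them within bases 1 to 8, read on the miRNA's own strand. Of the 5 listed members of the family of miR-130, miR-301 and miR-454, 4 had a value and none passed in limma, with 1 at an unadjusted p under 0.05 and 0 called by edgeR. Their sum was 135 to 234 CPM in RA libraries and 249 to 298 CPM in control libraries, without overlap and far below the family sum. The search covered only miRNAs with a RefSeq sequence under the same name. A miRNA without such a sequence could hold the 6 bases and not be returned. Most of the sum was miR-130a-3p, which was not returned, at 158 ± 33.6 CPM after RA and 239 ± 26.7 CPM in controls (SD, n = 3 each). On the log2 scale this came to -0.61 (adjusted p = 0.18 from limma). miR-301a-3p averaged 21.8 CPM after RA and 21.7 CPM in controls, and miR-130b-3p 1.96 CPM after RA and 5.79 CPM in controls, and neither passed.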
